A study of Mus musculus with 24 samples.

Results

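The comparison described here set brain endothelial fractions of Sox17-deficient mouse embryos against those of control embryos at embryonic stage E15.5. It took every library that the labels place in the 2 E15.5 groups, 3 KO and 3 wt, which makes 6 of the 24 libraries of a series that also covers P5, P9 and adult brain. All E15.5 embryos, KO and wt alike, were homozygous for floxed Sox17 and had been exposed to tamoxifen through the dam, in 2 injections of 1 mg on days 11.5 and 13.5 after conception. KO embryos also carried Cdh5(PAC)-Cre-ERT2, a recombinase under an endothelial promoter that tamoxifen activates, and wt embryos did not. Carrying the recombinase and losing Sox17 therefore cannot be told apart in this design. The labels call the replicates biologically independent and do not say whether embryos were pooled. Brains were dissociated, red cells and debris were removed with the dissociation kit, CD45-positive leukocytes were depleted and CD31-positive cells were kept. Polyadenylated RNA was then sequenced as stranded libraries, and each value below starts from the deposited raw count per gene.

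Sox17 belongs, with Sox7 and Sox18, to the SoxF transcription factors of endothelial cells, and is known for its part in arterial identity, vessel growth and the tightness of brain vessels. The same factor is known in the embryo from the endothelium that gives rise to blood cells and from fetal blood stem cells. Type I interferons are secreted antiviral proteins that act through the receptor pair Ifnar1 and Ifnar2 and transcription factors that include Stat2 and Irf9 to switch on a large set of effector genes. Red cells of the midgestation embryo come in a primitive lineage from the yolk sac, which carries embryonic globins, and a definitive lineage from the fetal liver, which carries adult globins.

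The E15.5 libraries held 12301779 to 19830600 counts over genes, with 21162 to 22600 genes detected in a library. Levels are given in CPM, counts scaled by TMM library size. Taking 3 counts as the limit for a gene at 0, and counting error only, levels below 0.151 to 0.244 CPM were not detectable, depending on the library. The endothelial label was borne out by high levels of its markers. Cdh5, the endothelial cadherin, averaged 602 TPM in KO and 510.0 TPM in wt libraries, and the tight junction gene Cldn5 averaged 3154 and 3792 TPM in KO and wt libraries. The leukocyte gene Ptprc averaged 0.136 TPM in KO and 0.122 TPM in wt. RNA of other brain cells was present: the pericyte gene Pdgfrb averaged 158 TPM in KO and 169 TPM in wt, and the neuronal tubulin Tubb3 1585 and 1659 TPM in KO and wt. The pericyte markers summed to 1583, 1824 and 856 CPM in the 3 KO libraries and to 1682, 2216 and 726 CPM in the 3 wt libraries. Library 3 of each genotype was the lowest, and the first principal component of the 6 libraries, with 43.6% of the variance, set those libraries apart from the rest. KO and wt separated on the second component, with 18.2%. The male gene Kdm5d was at 0, 63 and 0 CPM in KO and at 0, 67.6 and 0 CPM in wt libraries, so each genotype had 1 male library, numbered 2.

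Sox17 (ENSMUSG00000025902, mm10 chromosome 1, 4490931 to 4497354, minus strand) was at 10.6, 8.34 and 8.42 CPM in the KO libraries and at 78.3, 85.5 and 108 CPM in the wt libraries. The KO libraries thus held 10.1% of the wt level, with a log2 fold change of -3.30 ± 0.30 (SE; edgeR's quasi-likelihood test, adjusted p 4.5e-06). The deposited counts do not separate recombined from intact Sox17 transcripts. In such bulk libraries fewer cells of a type and less RNA per cell cannot be told apart. The neighbouring protein-coding gene downstream on the same strand is Rp1, a photoreceptor microtubule gene whose annotation ends 81690 bases from that of Sox17. Rp1 was at 15.8, 11.4 and 14 CPM in KO against 1.39, 1.21 and 1.06 CPM in wt libraries, which is a log2 fold change of 3.37 (adjusted p 6.2e-09). Of the 7 tested neighbours of Sox17 within 1 Mb, Rp1 was the one that passed. The other 6, Atp6v1h, Lypla1, Mrpl15, Rgs20, Tcea1 and Xkr4, had log2 fold changes of 0.04, 0.21, 0.07, 0.13, 0.22 and 0.56 with an adjusted p of 1 each. Esr1, the estrogen receptor gene, was at 14.8, 9.45 and 7.49 CPM in KO against 0.44, 0.121 and 0.236 CPM in wt libraries. Cre-ERT2 contains a ligand-binding domain of an estrogen receptor, and whether these counts come from the transgene or from Esr1 itself was not tested.

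**Figure D1:**
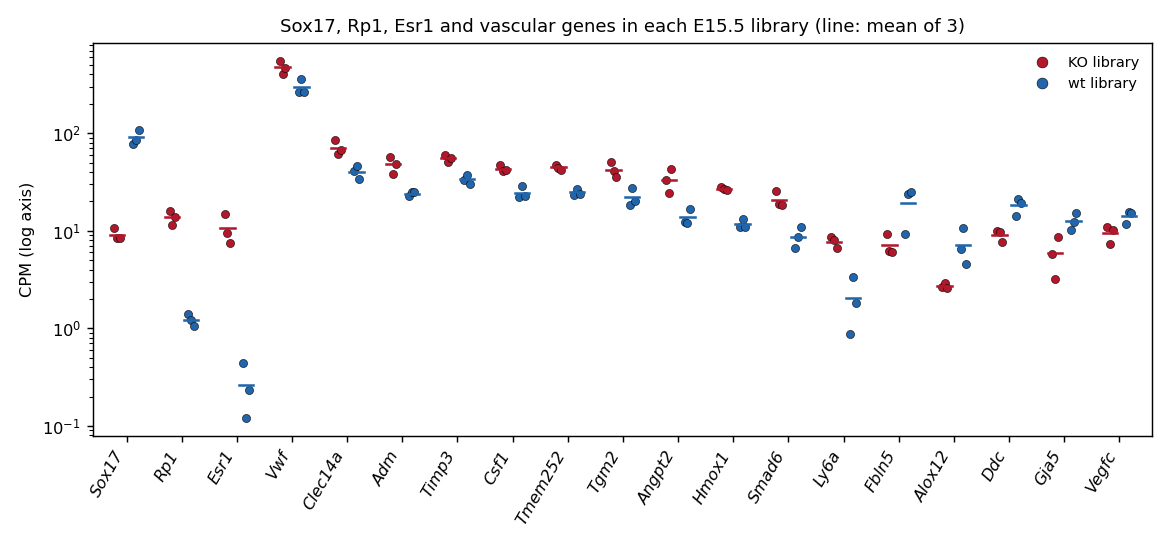
CPM (log axis) of Sox17, Rp1, Esr1 and 16 other genes, most of them vascular, in each E15.5 library, KO left of wt for each gene, with a line at the mean of 3 libraries. Sox17 lies near 9 CPM in KO against 78.3 to 108 CPM in wt, and Gja5 and Vegfc at the right are genes that did not pass the test.

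A gene was tested where its mean count reached 10 in any of the 8 groups of the series, which left 17159. Of these, 95 passed at an adjusted p under 0.05, which is 0.554%. In KO libraries 73 were higher (0.425% of those tested) and 22 were lower (0.128%). All 3 KO libraries lay above or below all 3 wt libraries for each of the 95. The same non-overlap held for 4.99% of all tested genes upward and 3.36% downward. The median log2 fold change of all tested genes was 0.01. The count fell to 52 without wt library 1, 57 without wt library 3, 53 without KO library 1 and 58 without KO library 2, and 40 genes passed whichever single library was left out, 30 higher and 10 lower. With the 6 E15.5 libraries fitted alone, 21 genes passed, and 130 with library number added to that fit.

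Genes of the interferon response made up 33 of the 73 rises. They came from a list of 91 tested genes, of which none fell, 58 did not pass and 87 had a positive log2 fold change. The median of all 91 was 0.76, beside 0.01 for all tested genes. Members of the list were chosen with earlier results of these data known. Every KO library was above every wt library for 53 of the 91, beside 4.99% of all tested genes. The 53 included all 33 called genes, but groups did not overlap for any of the 95 called genes. Of the 33, 18 passed whichever single library was left out. The count was 19 without wt library 1, 19 without wt library 3, 20 without KO library 2 and 7 with the E15.5 libraries fitted alone. It was 37 with library number added to that last fit, and whether same-numbered libraries belong together was not tested. Summed over the list, the level was 2235, 2232 and 2013 CPM in KO and 1499, 1663 and 1499 CPM in wt libraries (exact two-sided permutation test, p = 0.1, the smallest that 3 against 3 allows). Among the wt libraries, number 2 was the highest for 32 of the 33 genes, and among the KO libraries number 3 was the lowest for 27. Macrophage and microglia markers, which stand for cells that also respond to interferon, summed to 22.9, 18.9 and 15.2 CPM in KO and 22.6, 23.3 and 13.2 CPM in wt libraries.

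Ligand transcripts were close to absent. The 11 interferon ligand genes summed to 0.942, 0.0892 and 0.0516 CPM in KO and 0.147, 0.484 and 0.413 CPM in wt, none reached the count minimum, and Ifnb1 and Ifng had 0 counts in all 6 libraries. Among the 6 receptor genes none passed, with a median log2 fold change of 0.05. Ifnar1 was at 137, 130 and 139 CPM in KO and 129, 135 and 132 CPM in wt libraries, and Ifnar2 at 43, 43.3 and 42.5 CPM in KO and 36.3, 41.3 and 49.6 CPM in wt. The receptor levels of KO and wt overlapped.

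Of 9 nucleic acid sensors, 2 rose, both of which detect viral RNA. Ddx58, which encodes RIG-I, was at 42.6, 40.7 and 35.2 CPM in KO and 20.2, 23 and 18.1 CPM in wt libraries (log2 0.95, adjusted p 0.0019). Ifih1, which encodes MDA5, was at 14.5, 16.2 and 10.3 CPM in KO and 4.03, 6.95 and 3.83 CPM in wt (log2 1.44, adjusted p 0.0041; 0.05 without wt library 1 and 0.058 without wt library 3). Among 8 signalling factors 2 rose. One of them, the transcription factor Irf7, which amplifies interferon production, stood at 21.8, 23.2 and 15.2 CPM in KO against 3.52, 6.83 and 2.01 CPM in wt libraries (log2 2.25, adjusted p 0.0037; 0.12 with the E15.5 libraries fitted alone). Stat2 and Irf9, factors of the type I pathway, had log2 fold changes of 0.25 and 0.21 and did not pass. Of 3 feedback inhibitors, Usp18, the protease that removes Isg15 from proteins and damps the receptor, rose, with 13.8, 14.4 and 10.5 CPM in KO against 2.13, 3.2 and 1.18 CPM in wt (log2 2.51, adjusted p 0.001). Socs1 and Socs3, which inhibit the kinases of the pathway, had log2 fold changes of 0.50 and 0.04 and did not pass.

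Antiviral effectors held the largest rises. Of 51 tested, 23 rose and 28 did not pass, with a median log2 fold change of 1.03 over the 51. Isg15, a ubiquitin-like modifier, was at 21.2, 23.3 and 16.3 CPM in KO and 2.78, 4.11 and 0.944 CPM in wt libraries, the steepest rise of the group (log2 2.90 ± 0.40, adjusted p 0.0007). Ifi44, a cytoplasmic interferon-induced protein gene, was at 12.7, 15.3 and 11.2 CPM in KO and 1.03, 3.44 and 0.826 CPM in wt (log2 2.79, adjusted p 0.00084). In both genes the KO and wt libraries lay far apart, and wt library 2 was the highest of its group. With the E15.5 libraries fitted alone neither passed (adjusted p 0.063 for Isg15 and 0.099 for Ifi44).

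The membrane tether Bst2, which holds budding viruses at the cell surface, was at 57.4, 46 and 46.3 CPM in KO and between 9.89 and 18.3 CPM in the 3 wt libraries (log2 1.76, adjusted p 0.00015). Lgals9, which encodes the secreted lectin galectin-9, was at 91.1, 80.7 and 83.7 CPM in KO and 18, 32.6 and 21.1 CPM in wt (log2 1.82, adjusted p 0.001). Rtp4, at 19.3, 25.2 and 14.1 CPM in KO and 4.18, 5.86 and 3.48 CPM in wt, rose by 2.08 log2 (adjusted p 0.0023). Calls of these 3 genes and of Usp18 held in every alternative fit of the E15.5 comparison.

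Further effectors rose. Parp14, an ADP-ribosyltransferase, rose by 1.94 log2, the nuclear body protein gene Sp100 by 1.90, Xaf1 by 1.50, the membrane protein gene Ifitm3 by 1.32, Parp12 by 1.20, the double-stranded RNA kinase gene Eif2ak2 by 1.12 and Slfn5 by 1.03, with adjusted p values of 0.00029 to 0.0039. The low-expressed Ifit1, an RNA-binding effector, was at 2.44, 4.06 and 2.12 CPM in KO and 0.366, 0.604 and 0 CPM in wt libraries (adjusted p 0.012; 0.068 without wt library 1, 0.082 without wt library 3 and 0.075 without KO library 2). Oas1a and Oasl1, of the oligoadenylate synthetase family that senses double-stranded RNA, rose by 2.31 and 2.19 log2 (adjusted p 0.013 and 0.02). The call of Oas1a was lost when wt library 1 (adjusted p 0.11) or 3 (0.14) or KO library 1 (0.066) was dropped, and that of Oasl1 when wt library 1 (0.16) or 3 (0.16) or KO library 2 (0.13) was. Members of such families have close copies between which the authors' counting could split reads. Among the effectors that did not pass, Adar, the RNA-editing deaminase, was the most abundant and had 234, 256 and 266 CPM in KO and 253, 201 and 237 CPM in wt.

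The interferon-inducible GTPases, which guard against intracellular pathogens and are best known as targets of interferon-gamma, had 5 rises among 11 tested and a median log2 fold change of 0.89. Irgm2 was at 18.8, 19.3 and 13.9 CPM in KO and 7.84, 10.8 and 5.37 CPM in wt libraries (log2 1.10, adjusted p 0.0019). Irgm1, Gbp3, Gbp4 and Ifi47 rose by 1.58, 1.26, 1.10 and 0.84 log2 (adjusted p 0.037, 0.02, 0.03 and 0.038), and each lost its call when wt library 1 (adjusted p 0.17, 0.16, 0.2 and 0.066), wt library 3 (0.18, 0.17, 0.2 and 0.27), KO library 1 (0.17, 0.071, 0.088 and 0.1) or KO library 2 (0.14, 0.14, 0.26 and 0.1) was left out, and Ifi47 also without wt library 2 (0.087) or KO library 3 (0.12). None of the 3 tested chemokine genes passed, and Cxcl10 was at 2.22, 1.96 and 0.981 CPM in KO and 0.733, 1.33 and 0.236 CPM in wt.

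**Figure D2:**
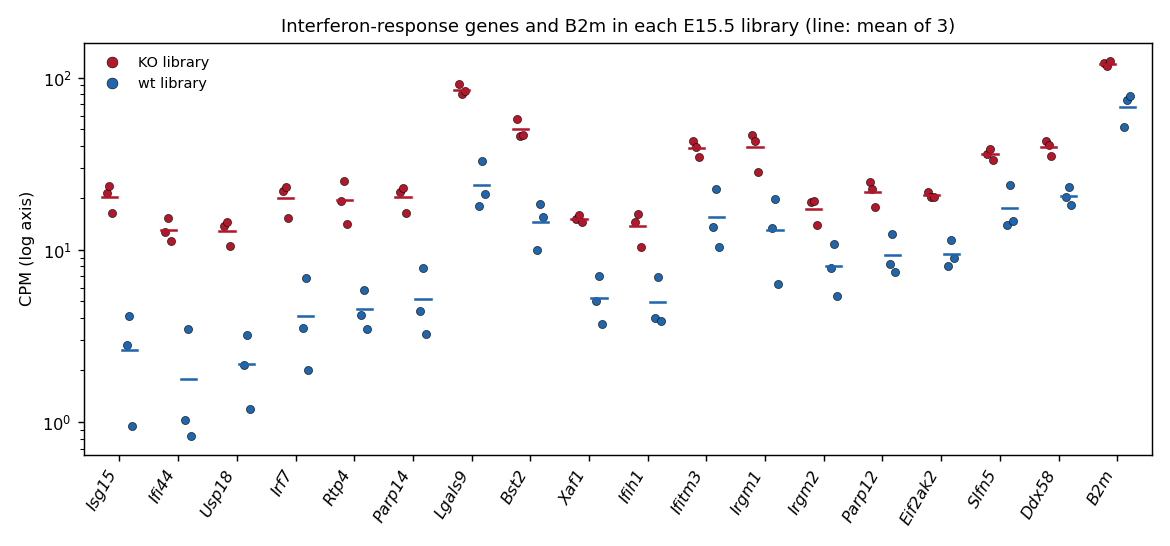
CPM (log axis) of 17 interferon-response genes and B2m in each E15.5 library, KO left of wt for each gene, with a line at the mean of 3 libraries. The 3 KO points lie above the 3 wt points for every gene shown, and the distance is widest for Isg15, Ifi44 and Usp18.

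Sequence near the start is shown for 6 of the called interferon genes, picked after the matches were seen, that match the element that interferon-activated factors bind. The RefSeq promoter table (GRCm38.p6, 250 bases before to 50 after each start) was searched on both strands for GAAANNGAAA, which reads TTTCNNTTTC on the other strand, and overlapping matches were kept. Entries existed for 25 of the 33 called interferon genes, and 14 of these, 56%, held a match. Of 47 interferon-list genes with an entry that did not pass, 16 held one, 34%. The list is one of interferon-response genes, a choice that itself favours such matches. Among the 40 other genes called higher, 5 of 27 with an entry did, 18.5%, and among the 22 called lower, 2 of 16, 12.5%. The share was 3.64% of the 11932 tested genes with an entry and 3.99% of all 27025 symbols in the table. A match is a description of these letters and not a bound site. In the windows below, written 5′ to 3′ on the strand of the gene, capitals mark the bases inside a match. They lie at chr4:156200850-156200921 (minus) for Isg15, chr19:34640760-34640838 (plus) for Ifit1, chr8:71537562-71537627 (minus) for Bst2, chr5:120907505-120907570 (minus) for Oas1a, chr11:48871410-48871475 (minus) for Irgm1 and chr11:58214888-58214947 (plus) for Irgm2.
Isg15: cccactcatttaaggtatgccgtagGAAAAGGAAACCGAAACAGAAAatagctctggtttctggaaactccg
Ifit1: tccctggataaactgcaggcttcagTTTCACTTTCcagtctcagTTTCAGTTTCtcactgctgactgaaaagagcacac
Bst2: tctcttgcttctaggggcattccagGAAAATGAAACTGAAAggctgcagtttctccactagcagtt
Oas1a: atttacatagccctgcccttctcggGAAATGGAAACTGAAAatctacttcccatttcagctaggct
Irgm1: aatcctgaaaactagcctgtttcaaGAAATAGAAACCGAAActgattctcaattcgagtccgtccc
Irgm2: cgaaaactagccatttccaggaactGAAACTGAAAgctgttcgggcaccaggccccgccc
Isg15 held 3 overlapping matches, Irgm2 held 1 and the other 4 held 2 each. Lgals9, Ifitm3 and Gbp3, not shown, also held 2 each.

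MHC class I genes, whose products present peptides on the cell surface, rose in part. Of 20 tested, 3 rose, beside 0.425% of all tested genes, and 17 did not pass. The median log2 fold change was 0.41, with 18 of the 20 positive and the lowest at -0.5. Every KO library was above every wt library for 11 genes and below for 1, beside 4.99% and 3.36% of all tested genes. B2m, the light chain shared by all class I molecules, was at 121, 117 and 124 CPM in KO and 51.7, 73.7 and 77.6 CPM in wt libraries (log2 0.83, adjusted p 0.018). Its call was lost without wt library 1 (adjusted p 0.17) and without KO library 1, 2 or 3 (0.079, 0.061 and 0.072). The heavy chain H2-Q4 and the peptide transporter Tap1 rose by 0.86 and 1.11 log2 (adjusted p 0.035 and 0.037). H2-Q4 lost its call without any library except wt library 2 (adjusted p 0.068 to 0.25), and Tap1 without any 1 of the 6 (0.054 to 0.2). The classical heavy chain H2-K1 was at 24.5, 20 and 19.6 CPM in KO and 9.23, 16.5 and 8.32 CPM in wt, without overlap but at an adjusted p of 0.23.

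Several called genes outside the list, chosen after their values were seen, are known to be interferon-inducible. Rnf213, a large ubiquitin ligase gene linked in humans to moyamoya disease of the brain arteries, was at 122, 136 and 95.2 CPM in KO and 36.4, 47.8 and 31.9 CPM in wt libraries (log2 1.60 ± 0.15, adjusted p 7.1e-07). It had, with Hbb-bs, the smallest adjusted p after Rp1 and Esr1. Gbp9, another guanylate-binding protein gene, was at 17.4, 16.5 and 13.3 CPM in KO and 6.38, 9.25 and 5.13 CPM in wt (log2 1.17, adjusted p 0.00059). Mlkl, the executioner of necroptosis, was at 5.59, 3.92 and 4.49 CPM in KO and 1.69, 1.81 and 1.89 CPM in wt (log2 1.31, adjusted p 0.0005). These 3 genes passed whichever library was left out. With the E15.5 libraries fitted alone, Gbp9 and Mlkl did not pass (adjusted p 0.13 each).

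**Figure D3:**
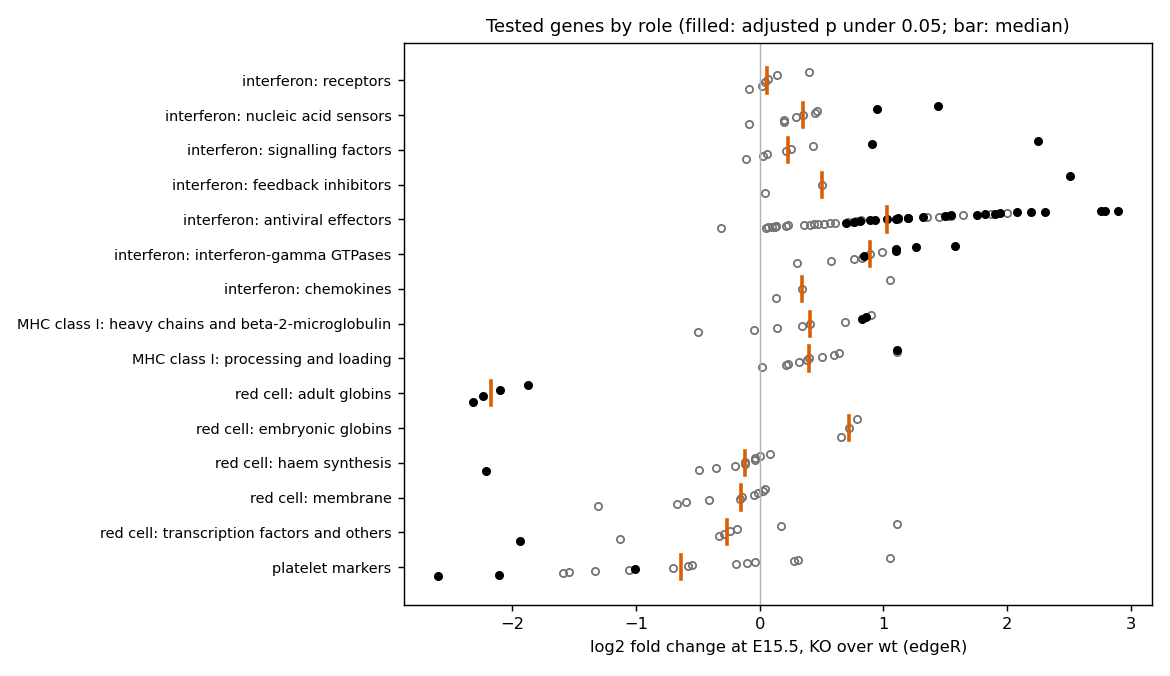
Log2 fold change at E15.5, KO over wt, of each tested gene of the interferon, MHC class I, red cell and platelet lists, by role. Filled points passed at an adjusted p under 0.05 and the bar is the median of a role: 1.03 for antiviral effectors, 0.05 for interferon receptors, -2.17 for adult globins and 0.72 for embryonic globins.

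Red cell transcripts were split. All 4 tested adult globins fell, while none of the 3 tested embryonic globins did. Of 35 tested red cell genes 6 fell, beside 0.128% of all tested genes, and 29 did not pass. The median log2 fold change of the 35 was -0.18. Hbb-bs, the major adult beta-globin, was at 189, 239 and 253 CPM in KO and 944, 1306 and 970.4 CPM in wt libraries (log2 -2.24 ± 0.20, adjusted p 7.1e-07). The alpha-globin Hba-a1 was at 158, 191 and 275 CPM in KO and 733, 900.2 and 657 CPM in wt (log2 -1.87, adjusted p 0.00058). Hba-a2 and Hbb-bt had log2 fold changes of -2.10 and -2.32 (adjusted p 0.00013 and 1.5e-05). Each of these 4 calls held in every alternative fit of the E15.5 comparison. Adult globin genes are near-identical in pairs, so reads may be split between copies. Their sum was 515, 636 and 805 CPM in KO and 2595, 3386 and 2506 CPM in wt libraries, a KO mean of 23% of the wt mean.

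Embryonic globins of the primitive lineage ran the other way without passing in the edgeR test reported here. Hbb-y was at 126, 216 and 301 CPM in KO and 93.2, 159 and 155 CPM in wt libraries (log2 0.66, adjusted p 0.92), and the groups overlapped. Hba-x was at 114, 225 and 296 CPM in KO and 102, 131 and 135 CPM in wt (log2 0.79, adjusted p 0.66; 0.0069 without KO library 1). Both passed in edgeR without the low-count filter (adjusted p 0.00039 for Hbb-y and 4.8e-06 for Hba-x). They also passed with library number added to the fit of the E15.5 libraries alone (0.012 and 0.048). Hbb-bh1 had 0.499, 3.08 and 4.24 CPM in KO and 0.806, 1.45 and 2.3 CPM in wt. The ratio of adult to embryonic globin CPM was 2.14, 1.43 and 1.34 in the KO libraries and 13.3, 11.6 and 8.58 in the wt libraries. The groups did not overlap (exact two-sided permutation test, p = 0.1, the smallest that 3 against 3 allows). This ratio, chosen after the values were seen, is taken within a library and does not depend on how libraries were scaled.

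**Figure D4:**
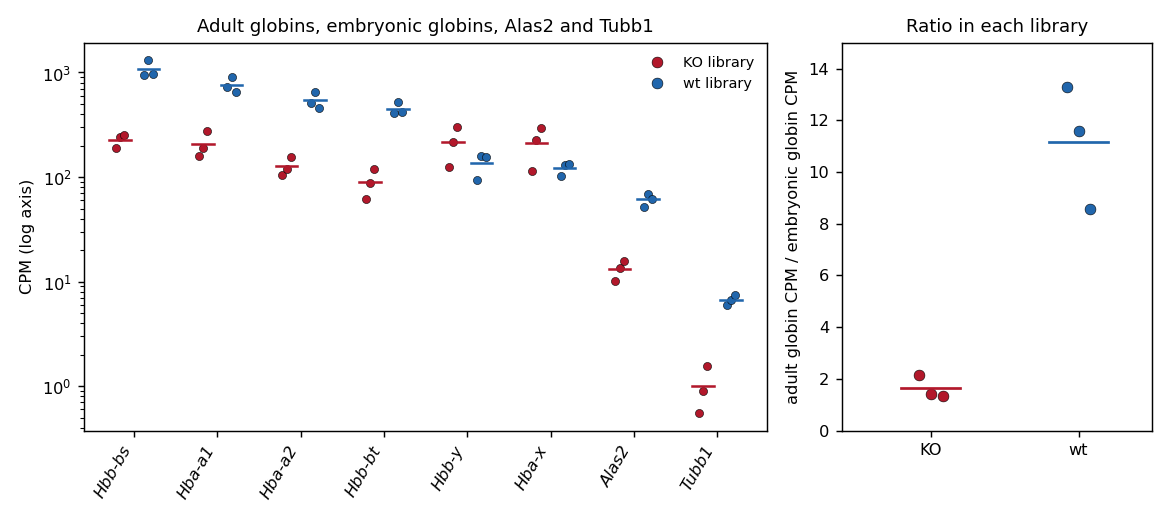
Left, CPM (log axis) of 4 adult globins, 2 embryonic globins, Alas2 and Tubb1 in each E15.5 library, KO left of wt, with a line at the mean of 3. Right, the ratio of summed adult to summed embryonic globin CPM in each library, 1.34 to 2.14 in KO and 8.58 to 13.3 in wt.

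Beyond the globins, Alas2, the red cell form of the first enzyme of haem synthesis, was at 10.1, 13.5 and 15.8 CPM in KO and 51.9, 69.2 and 62.1 CPM in wt libraries (log2 -2.21, adjusted p 4.5e-06). The other 9 haem synthesis genes, most of them used by all cells, did not pass in edgeR, and the median of the 10 was -0.12. DESeq2 called 1 of these 9, Fech, which inserts the iron into haem and was at 26.5, 24.9 and 27.7 CPM in KO and 31.4, 43.2 and 36.8 CPM in wt (log2 -0.49, adjusted p 0.063 in edgeR). Trim10, a gene of late red cell maturation, was at 0.776, 0.669 and 0.671 CPM in KO and 2.78, 3.63 and 2.77 CPM in wt (log2 -1.94, adjusted p 0.026), and lost its call without any 1 of the 6 libraries (adjusted p 0.058 to 0.14). Among the 10 membrane genes none passed. Slc4a1, the anion exchanger, was at 6.7, 7.98 and 10.2 CPM in KO and 14.7, 15.7 and 9.73 CPM in wt. Red cells had been removed during isolation, per the labels, and whether the residue of that step differed between genotypes was not tested.

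Some platelet genes fell alongside. Of 16 tested platelet markers 3 fell, beside 0.128% of all tested genes, and 13 did not pass. The median log2 fold change was -0.64, and 3 of the 16 were positive, up to 1.05. Every KO library was below every wt library for 7 markers and above for 1, beside 3.36% and 4.99% of all tested genes. Tubb1, the platelet tubulin, was at 0.554, 0.892 and 1.55 CPM in KO and 5.94, 6.65 and 7.49 CPM in wt libraries (log2 -2.60, adjusted p 0.0029), the largest fall after Sox17. Itga2b, the platelet integrin CD41 that also marks the first blood progenitors, was at 10.3, 11.3 and 13.7 CPM in KO and 22.6, 28.3 and 20.5 CPM in wt (log2 -1.01, adjusted p 0.011; 0.079 without wt library 2, 0.088 without KO library 1 and 0.071 without KO library 2). Gp9, a subunit of the von Willebrand factor receptor, was at 0.554, 0.491 and 0.31 CPM in KO and 2.42, 3.38 and 1.3 CPM in wt (log2 -2.11, adjusted p 0.012; 0.089 without wt library 2, 0.064 without KO library 2 and 0.072 without KO library 3). Another subunit of that receptor, Gp1bb, did not pass, at 15.8 ± 1.27 CPM in KO and 16.3 ± 0.717 CPM in wt (SD, n = 3 each). Treml1 had an adjusted p of 0.051 (log2 -1.54; 0.029 without KO library 3 and 0.01 in DESeq2). Alox12, the platelet-type lipoxygenase gene and not one of these markers, was at 2.66, 2.9 and 2.58 CPM in KO and 6.45, 10.6 and 4.54 CPM in wt (log2 -1.37, adjusted p 0.0029). Its call was lost with the E15.5 libraries fitted alone (adjusted p 0.25) and without both libraries numbered 2 (0.093).

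Ptprc, the antigen CD45 used for the depletion, stood at 0.499, 0.624 and 0.723 CPM in KO and 0.293, 1.09 and 0.295 CPM in wt libraries. The 16 markers of other leukocytes summed to 389, 330 and 448 CPM in KO and 315, 318 and 402 CPM in wt, of which Lcp1, Coro1a and Laptm5 made up nearly all. These 3 genes lay between 51.2 and 279 CPM in all 6 libraries, and no other marker exceeded 1.09 CPM. Of 15 macrophage and microglia markers 1 fell: Lyz2, the myeloid lysozyme, at 1.83, 1.56 and 1.86 CPM in KO and 5.28, 5.86 and 3.07 CPM in wt (log2 -1.37, adjusted p 0.013). It lost its call without wt library 1 (adjusted p 0.08), wt library 2 (0.089), KO library 1 (0.06) or KO library 2 (0.092). The microglia genes Cx3cr1 and P2ry12 stayed at 0.177 to 1.33 CPM in all 6 libraries, and none of the 12 tested markers of other leukocytes passed, with 2 at an unadjusted p under 0.05. Hmox1, which breaks down haem, rose, with 28, 26.7 and 26.3 CPM in KO against 10.8, 13.1 and 10.9 CPM in wt (log2 1.21 ± 0.16, adjusted p 0.00012), and was the 1 of 15 tested haem and iron handling genes that passed. The ferritin heavy chain Fth1 was at 737, 814 and 656 CPM in KO and 377, 478 and 526 CPM in wt (log2 0.68, adjusted p 0.11; 0.031 in DESeq2).

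Genes of vessel growth and of the vessel wall changed in smaller numbers. Of 32 tip cell and angiogenic genes 2 rose, both ligands, beside 0.425% of all tested genes, and the median was 0.15. Angpt2, the Tie2 ligand that loosens vessels, was at 32.9, 24.4 and 42.9 CPM in KO and 12.2, 12.1 and 16.8 CPM in wt libraries (log2 1.28, adjusted p 0.044). Adm, the vasodilator adrenomedullin, was at 57.5, 38.4 and 48.2 CPM in KO and 22.8, 24.7 and 24.7 CPM in wt (log2 0.99, adjusted p 0.03). The call of Angpt2 was lost without any 1 wt library (adjusted p 0.25, 0.21 and 0.092 for libraries 1, 2 and 3), without KO library 1 (0.12) and without KO library 3 (0.24), and that of Adm without the same libraries (0.17, 0.1 and 0.14 for wt, 0.18 and 0.095 for KO). Apln, the tip cell peptide apelin, was at 168, 130 and 172 CPM in KO and 102, 98.6 and 90.8 CPM in wt, with an adjusted p of 0.059 (0.039 without KO library 2 and 0.013 in DESeq2).

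In the BMP and TGF-beta list 2 of 39 tested genes rose, beside 0.425% of all tested genes. One was Smad6. This gene, the inhibitor of BMP signalling, was at 25.5, 18.6 and 18.3 CPM in KO and 6.67, 8.7 and 10.8 CPM in wt libraries (log2 1.23 ± 0.21, adjusted p 0.0024), and passed whichever library was left out. It did not pass with the E15.5 libraries fitted alone (adjusted p 0.099). Of the 8 tested targets in the list 1 rose and 4 had an unadjusted p under 0.05. The BMP targets Id1 and Id3 had log2 fold changes of 0.65 and 0.05 and did not pass.

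Of 17 venous genes 2 rose, beside 0.425% of all tested genes. Vwf, the clotting factor of endothelial storage granules, was at 555, 401 and 460 CPM in KO and 264, 357 and 266 CPM in wt libraries (log2 0.67, adjusted p 0.021; 0.18 without wt library 1, 0.15 without wt library 3 and 0.18 without KO library 1). Tmem252 was at 47.3, 43.9 and 42.3 CPM in KO and 23.3, 27.1 and 23.9 CPM in wt (log2 0.84, adjusted p 0.0072; 0.065 without wt library 1 and 0.055 without wt library 3). Clec14a, an endothelial lectin and the 1 of 20 endothelial identity genes that passed, was at 86, 60.7 and 67 CPM in KO and 41.2, 46.3 and 33.7 CPM in wt (log2 0.82, adjusted p 0.0066; 0.073 without wt library 3 and 0.079 without KO library 1). The identity list as a whole summed to 7648, 6349 and 6413 CPM in KO and 5984, 7246 and 6775 CPM in wt, which overlapped. Csf1, the macrophage growth factor, rose by 0.82 log2 (adjusted p 0.012; 0.11 without wt library 1, 0.1 without wt library 3 and 0.079 without KO library 1). Ly6a, the surface antigen Sca-1 of vessels and blood stem cells that interferon also induces, was at 8.59, 7.98 and 6.71 CPM in KO and 0.879, 3.38 and 1.83 CPM in wt (log2 1.84, adjusted p 0.0017). Icam1, an adhesion receptor for leukocytes, was at 99.1, 69.6 and 81.7 CPM in KO and 32.5, 46.7 and 62.5 CPM in wt, with an adjusted p of 0.44 (2e-08 without the low-count filter).

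Vascular rises outside the lists, chosen after their values were seen, included Timp3, Tgm2, Synpo, Acer2 and Mmrn1. Timp3, an inhibitor of matrix proteases, was at 59.4, 50.4 and 55.4 CPM in KO and 33.2, 37.5 and 29.9 CPM in wt libraries (log2 0.71, adjusted p 0.0013). The cross-linking enzyme gene Tgm2 was at 51, 40.7 and 35.5 CPM in KO and 18.5, 27.2 and 20.2 CPM in wt (log2 0.94, adjusted p 0.00068). Synpo, an actin-binding protein gene, was at 23.3, 17.2 and 24.1 CPM in KO and 8.21, 11.4 and 8.73 CPM in wt (log2 1.17, adjusted p 0.0002). These 3 passed whichever library was left out. None of them passed with the E15.5 libraries fitted alone (adjusted p 0.11 for Timp3, 0.15 for Tgm2 and 0.069 for Synpo). Acer2, a ceramidase gene, was at 30.5, 22.3 and 33.6 CPM in KO and 11, 13.6 and 13.9 CPM in wt (log2 1.16, adjusted p 0.015; 0.055 to 0.13 without any library except KO library 2). Mmrn1, the storage granule protein multimerin, was at 43.6, 33.8 and 38.9 CPM in KO and 19.9, 21.5 and 27 CPM in wt (log2 0.76, adjusted p 0.03). The call of Mmrn1 was lost when wt library 1 (adjusted p 0.24) or 2 (0.13) or KO library 1 (0.18) or 3 (0.078) was dropped, and in limma (0.69).

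In the arterial list 1 of 26 tested genes fell and the median was -0.18. Fbln5, which assembles elastic fibres, was at 9.25, 6.15 and 5.99 CPM in KO and 9.31, 23.7 and 24.8 CPM in wt libraries (log2 -1.43, adjusted p 0.013). The wt library 1 lay beside KO library 1, and the call was lost without wt library 2 (adjusted p 0.076), wt library 3 (0.11), KO library 2 (0.092) or KO library 3 (0.088). Gja5, the arterial connexin 40, was at 5.76, 3.17 and 8.73 CPM in KO and 10.3, 12.2 and 15.2 CPM in wt (log2 -1.09, adjusted p 0.23; 0.047 without KO library 3). Vegfc, a growth factor for lymphatic and venous vessels, was at 10.8, 7.36 and 10.1 CPM in KO and 11.8, 15.7 and 15.2 CPM in wt (log2 -0.59, adjusted p 0.096). KO and wt did not overlap for Gja5 or for Vegfc, and neither gene passed in the edgeR test reported here. Vegfc passed in DESeq2 (adjusted p 0.019) and with scaling to endothelial genes (0.045), and Gja5 passed without the low-count filter (0.00035). Gja5 also passed with library number added to the fit of the E15.5 libraries alone (0.004). None of the 22 tested Notch genes passed in edgeR, DESeq2 or limma, 1 had an unadjusted p under 0.05, and the median was -0.06.

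Other falls were of mixed kind. Itgal, the leukocyte integrin CD11a, named after its values were seen since it lay under the count minimum for naming, was at 0.388, 0.312 and 0.413 CPM in KO and 1.1, 1.75 and 1.18 CPM in wt libraries (log2 -1.57, adjusted p 0.025; 0.054 to 0.16 without any library except wt library 1). Ddc, the decarboxylase that makes dopamine and serotonin, was at 10, 9.68 and 7.7 CPM in KO and 14.3, 21.3 and 19.2 CPM in wt libraries (log2 -1.0, adjusted p 0.00065), and passed whichever library was left out. It did not pass with the E15.5 libraries fitted alone (adjusted p 0.13). Fam46c, a poly(A) polymerase gene, fell by 1.15 log2 (adjusted p 0.012; 0.079 without wt library 2, 0.079 without KO library 1 and 0.092 without KO library 2). T, which encodes the mesoderm factor brachyury, fell by 1.12 log2 (adjusted p 0.036; 0.056 to 0.22 without any 1 of the 6 libraries).

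No gene passed in edgeR's test in the Wnt list of 37 or the barrier list of 39 tested genes, whose medians were -0.01 and -0.04. At an unadjusted p under 0.05 stood 2 Wnt and 9 barrier genes, beside 853 of all 17159 tested genes. DESeq2 called 1 gene in each list and limma none. Lef1 and Axin2, a transcription factor and a feedback target of Wnt signalling, had log2 fold changes of 0.15 and -0.09. The tight junction gene Cldn5 was at 1242, 1094 and 969 CPM in KO and 1390.4, 1414 and 1225 CPM in wt libraries (log2 -0.29, adjusted p 0.88). The glucose transporter Slc2a1 and the lipid transporter Mfsd2a had log2 fold changes of 0.21 and -0.32, and Plvap, the diaphragm protein of leaky vessels, 0.34. Of the other SoxF factors, Sox7 was at 104, 85.9 and 83.6 CPM in KO and 64.9, 78.9 and 59.4 CPM in wt (log2 0.43, adjusted p 0.11; 0.025 without wt library 2 and 0.044 in DESeq2), and Sox18 had a log2 fold change of 0.18. All 29 tested cell cycle genes, of which 27 had a positive log2 fold change, missed the threshold in edgeR, DESeq2 and limma. Of these, 6 stood at an unadjusted p under 0.05, and the median was 0.21, beside 0.01 for all tested genes. Every KO library was above every wt library for 8 of the 29, beside 4.99% of all tested genes, and below for none. The list summed to 1644, 1572 and 1500 CPM in KO and 1370, 1493 and 1238 CPM in wt, without overlap.

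KO and wt were compared at P5, P9 and adult stages as well, each with wt libraries of its own stage. At P5 and P9, KO and wt alike, 100 µg of tamoxifen had been given on postnatal day 1. Adults, for which the labels give an age of 6 weeks, had 4 injections of 1.5 mg in both genotypes. Tamoxifen schedules thus differed between stages. The dissociation kit was shared by E15.5 and P5 and another was used at P9 and adult, so stage cannot be told apart from these. The KO effect at E15.5 differed from that at P5 for 6 genes, 0.035% of those tested, and from the mean effect at the other stages for 215 genes, 1.25%. The 215 included 51 of the 95 genes called at E15.5, 37 of the rises and 14 of the falls, a count that the call at E15.5 itself favours. The 6 became 3 without wt library 1, 12 without wt library 2, 1 without wt library 3, 1 without KO library 1 and 2 without KO library 2. The 215 became 140 without wt library 1, 98 without KO library 1 and 99 without KO library 2. At P5, 90 genes passed (0.525%). These shared 18 genes with E15.5, 18.9% of the E15.5 calls and 20% of the P5 calls, and all 18 moved the same way.

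For the 91 tested interferon-list genes the median log2 fold change was 0.76 at E15.5, 0.58 at P5, -0.14 at P9 and 0.02 in adults, beside medians of 0.01, 0.00, 0.02 and 0.01 over all tested genes. At E15.5, 87 of the 91 had a positive value, at P5 83, at P9 35 and in adults 49. Those higher in KO numbered 33 at E15.5, 4 at P5, 7 at P9 and 0 in adults, and those lower numbered 0, 0, 9 and 0 at the same stages. For the 33 called at E15.5 the median was 1.32 at E15.5, 0.69 at P5, -0.21 at P9 and 0.02 in adults. All 33 were positive at P5 too, and 3 of them passed there. None of the 33 passed the test of a difference between E15.5 and P5, which 0.035% of all tested genes passed. In the test of E15.5 against the mean of the other stages 23 of the 33 passed, beside 1.25% of all tested genes. The 33 were picked by their E15.5 effect, which itself favours a larger value there, in that test and in the medians. Isg15 had log2 fold changes of 2.90 at E15.5, 1.16 at P5, -0.32 at P9 and -0.21 in adults. The list's summed level in wt libraries averaged 1554 ± 94.8 CPM at E15.5, 3513 ± 434 CPM at P5, 3830 ± 177 CPM at P9 and 6006 ± 319 CPM in adults (SD, n = 3 each). Scaling factors from the endothelial identity genes were 0.336 to 0.538 in wt libraries at E15.5 and 1.25 to 1.61 at P5. They were 1.29 to 1.64 at P9 and 0.806 to 0.844 in adults. DESeq2 factors over all tested genes were 0.832 to 1.17 in these wt libraries. Endothelial RNA thus held unlike shares of the libraries between stages, and its part in the summed levels and effects was not tested.

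**Figure D5:**
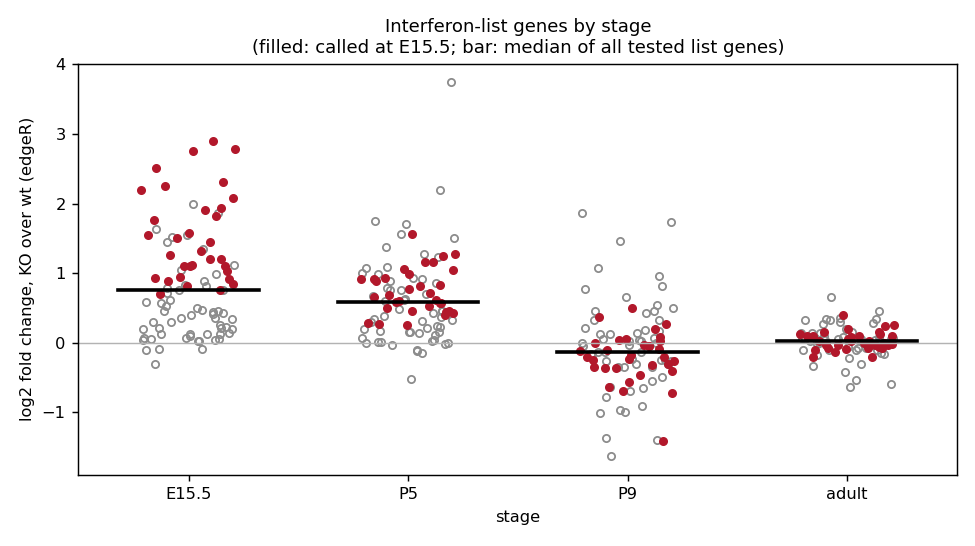
Log2 fold change, KO over wt, of the 91 tested interferon-list genes at each stage, with the 33 called at E15.5 filled and a bar at the median of all 91. The medians are 0.76 at E15.5, 0.58 at P5, -0.14 at P9 and 0.02 in adults.

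Of the 6 red cell genes that fell at E15.5, 3 had an effect that differed from that at P5, and Hba-a1, Hba-a2 and Trim10 did not pass that test (adjusted p 0.49, 0.19 and 1). The 6 genes whose effect differed from that at P5 were Hbb-bs, Hbb-bt, Alas2, Tmem100, Eda2r and Phlda3. The log2 fold change of Hbb-bs was -2.24 at E15.5 and -0.19 at P5, a difference of -2.04 (adjusted p 0.0027). For Alas2 it was -2.21 at E15.5 and -0.32 at P5, a difference of -1.89 (adjusted p 0.023; 0.057 without wt library 3, 0.071 without KO library 1 and 0.051 without KO library 2). Adult globin CPM summed to 652 ± 146 in KO and 2829 ± 485 in wt at E15.5, and to 959 ± 311 in KO and 1213 ± 295 in wt at P5 (SD, n = 3 each). At P9 the sums were 1287 ± 134 in KO and 1585 ± 102 in wt, and in adults 955 ± 65 in KO and 1338 ± 99.5 in wt. The groups overlapped at P5 and not at the other stages. None of the 4 adult globins passed at P5, P9 or in adults, where their median log2 fold changes were -0.41, -0.41 and -0.49. Embryonic globins summed to at most 2.03 CPM in any library after E15.5, so their ratio has no counterpart at the later stages. Tmem100, an endothelial membrane protein gene that BMP signalling induces, had a log2 fold change of 0.52 at E15.5 and -1.32 at P5. Eda2r and Phlda3, targets of p53, had log2 fold changes of 0.93 and 0.83 at E15.5, where neither passed, and of 4.24 and 3.09 at P5. Besides Hbb-bs, which passed whichever library was left out, each of the 6 lost the call of a difference in some such fit. Hbb-bt did so without wt library 1, 2 or 3 (adjusted p 0.068, 0.055 and 0.078) and KO library 1 or 2 (0.071 and 0.096), and Tmem100 without wt library 1 or 3 (0.098 and 0.082) and KO library 1 (0.098). Eda2r lost it without wt library 3 (0.26) and without any 1 KO library (0.071, 0.081 and 0.071 for libraries 1, 2 and 3), and Phlda3 without any 1 of the 6 libraries (0.056 to 0.2).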

How the data were processed

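The authors deposited 1 table per library with raw counts per gene and TPM values, in which counts are divided by gene length and scaled to 1 fixed total per library. Per the submitters' processing notes, STAR 2.5.3a, SAMtools 1.5, FastQC and Trim Galore 0.4.1 were used with build mm10. The counting tool and annotation release are not given in the sources used here. Counts were analysed with edgeR 4.0.16 in R 4.3.3: TMM scaling, genes whose mean count reached 10 in any of 8 groups, 1 quasi-likelihood model over all 24 libraries, and Benjamini-Hochberg adjustment over 17159 genes with a threshold of 0.05. CPM values use TMM library sizes, and TPM served only to set levels of different genes side by side. P-values measure the spread between these libraries. DESeq2 1.42.0, limma 3.58.1, other filters, scalings, sample sets and left-out libraries were alternatives. Members and gene lists were chosen with earlier results of these data known. Genes named are Sox17, its neighbours within 1 Mb, Esr1, the steepest rises and falls (at most 15 each, mean count 50 or more in the higher group), up to 8 called and 3 uncalled genes per list, and a fixed set of vascular genes, unless the text says that they were chosen after their values were seen. Sequences are from RefSeq (GRCm38.p6). Some named genes are not reported here.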

Additional observations from a re-analysis of the deposited data

Results flagged for a closer look

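For the genes below, the KO effect at E15.5 differed from the mean effect at P5, P9 and adult stages, by edgeR's test of that difference. Differences are log2 values, E15.5 minus the mean of the other stages. Most of these genes were named for a large E15.5 effect, a choice that itself favours a larger effect there than at other stages. In the interferon group the difference was 2.69 for Isg15, 2.39 for Oas1a, 2.37 for Ifi44, 2.25 for Usp18, 2.01 for Irf7, 1.87 for Rtp4, 1.70 for Parp14, 1.61 for Bst2, 1.57 for Lgals9 and 1.53 for Sp100, with adjusted p values of 0.0026 to 0.018.

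Among red cell genes it was -1.98 for Hbb-bs, -1.97 for Alas2, -1.86 for Hbb-bt, -1.59 for Hba-a2 and -1.43 for Hba-a1 (adjusted p 5.7e-05 to 0.015). It was -2.48 for the platelet gene Tubb1, -1.07 for Itga2b, -1.32 for Lyz2, -1.04 for Fam46c and -0.75 for Ddc (adjusted p 0.018 to 0.045). For 2 genes the difference ran against the E15.5 effect, because the effect at the other stages was larger on average: -1.71 for Rp1 (adjusted p 0.0061) and 1.22 for T (adjusted p 0.03).

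Against P5 alone the difference was -3.32 for Eda2r, -2.26 for Phlda3, -2.04 for Hbb-bs, -1.95 for Hbb-bt, -1.89 for Alas2 and 1.85 for Tmem100 (adjusted p 0.0027 to 0.045).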

How the results depend on the processing

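The number of genes called at E15.5, 95 with 73 higher and 22 lower, depended on the test. DESeq2's test called 148 (113 higher, 35 lower) and edgeR without a low-count filter 212 (152 and 60). The 6 E15.5 libraries fitted alone gave 21 (13 and 8), leaving out both libraries numbered 3 gave 51 (37 and 14), and a test against a fold of 0.5 log2 gave 30 (22 and 8). Leaving out both libraries numbered 2, an alternative chosen after seeing the data, gave 69 with 8 lower. Leaving out 1 library gave 52 to 93 genes, with 34 to 83 higher and 10 to 18 lower. Interferon genes called, 33, came to 7 with the E15.5 libraries alone and 37 with library number added to that fit. They came to 13 with the fold threshold and 19 to 35 with 1 library left out. These settings were added for this count after seeing the data. Genes differing from P5, 6, came to 18 with DESeq2, 64 without the filter, 2 without both libraries numbered 3 and 1 to 12 with 1 library left out. Genes differing from the mean of the other stages, 215, came to 389, 413, 110 and 98 to 190 under those settings in that order, and to 135 with scaling to endothelial identity genes. That scaling moved the median of all genes by -0.10 log2 and gave 63 higher and 33 lower. The sign turned only for genes that did not pass: Sox18 ranged from -0.04 to 0.42 with 1 library left out, Axin2 from -0.25 to 0.06 (0.04 without both libraries numbered 2), Ifnar2 from -0.08 to 0.14 (-0.01 without both numbered 2, -0.07 with endothelial scaling), and Ifnar1 was -0.07 with endothelial scaling. Of 70 named genes called, 15 passed under all 17 settings of the E15.5 comparison. The replicate block, fitted on the E15.5 libraries alone, gave 130 genes (97 higher, 33 lower). Deviations of same-numbered KO and wt libraries correlated at 0.065, 0.368 and 0.486 for numbers 1, 2 and 3. Those of differently numbered libraries correlated at -0.472 to 0.252. The main model did not take the numbers as pairs, and whether same-numbered libraries belong together was not tested. The cause of these changes was not tested.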
